A study of Rattus norvegicus with 18 samples.

Results

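The genes described here belong to interleukin 6 and interleukin 1 signalling: Il6, Il6r, Il6st, Lif, Osmr, Stat3, Socs3, Il1b, Il1r1 and Il1rn. They were chosen as the probe sets whose only gene symbol in the platform annotation was one of these 10 names. Of the 10 genes, 9 had such a probe set, among 14217 genes with one in the whole series, and they had 15 probe sets between them. Osmr had none and was not analysed here. A filter on low signals kept 10 of the 15 probe sets, for 6 genes (Il6, Il1b, Il6r, Il6st, Il1r1 and Stat3). Lif, Socs3 and Il1rn did not pass it.

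Gene expression was measured on 18 Affymetrix arrays in follicles of Crl:CD(SD) rats around ovulation, cut by laser microdissection from frozen ovary sections 8 micrometres thick, with 15 follicles in each phase. The 6 groups had 3 samples each. Untreated rats supplied the peri-ovulatory group control PeF, taken at 22:00 on the day of proestrus, and the post-ovulatory group control PoF, taken at 10:00 on the day of estrus. Indomethacin (IM), which blocks the cyclooxygenases that make prostaglandins, was given once by mouth at 4 mg/kg at 16:00 of proestrus. RU486 (RU), which blocks the progesterone and glucocorticoid receptors, was given once by mouth at 100 mg/kg at 10:00 of proestrus. After each drug, peri-ovulatory follicles were taken at 22:00 (IM PeF, RU PeF), and follicles that had stayed unruptured were taken at the later time (IM UF, RU UF). At estrus the control follicles were ruptured and the treated ones were not, so treatment and rupture cannot be told apart there. The labels state 3 animals per treatment group and time but tie no sample to an animal, so each p-value is set against sample-to-sample spread, which may be technical. A whole follicle holds granulosa, theca and vascular cells, and in such bulk samples fewer cells of a type and less RNA per cell cannot be told apart. Of 12 granulosa markers 11 were on the array, and at least 10 of them lay above background on every array.

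Interleukin 6 is a cytokine that binds the receptor IL6R, and the pair then engages the shared chain gp130, the product of Il6st. Gp130 activates Janus kinases, which phosphorylate STAT3, and STAT3 in turn induces SOCS3, an inhibitor that closes the loop. LIF and oncostatin M use the same gp130 chain with receptors of their own. Interleukin 1 beta binds IL1R1, which pairs with the accessory chain IL1RAP and signals through MYD88 and IRAK kinases to NF-kappaB, while the antagonist IL1RN occupies IL1R1 without signalling. Ovulation has long been likened to an inflammatory reaction, and in the ovulating follicle cumulus and granulosa cells are known sources of interleukin 6.

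The start of Il6 is shown here because Il6 had the widest range of the members and its promoter is a textbook target of cyclic AMP, C/EBP and NF-kappaB. The start of Il1b is shown beside it as the other ligand with a measured signal. Each sequence is the 250 bases before the gene's start from RefSeq (GRCr8). The window of Il6, a gene at chr4:5889999-5894575, is chr4:5894576-5894825 and that of Il1b, a gene at chr3:137030200-137036581, is chr3:137036582-137036831, both on the minus strand and written 5′ to 3′. Capitals mark every match, on either strand, to TTCNNNGAA (STAT), GGG and CC with any 5 bases between them (NF-kappaB), TGACG (cyclic AMP response), TGANTCA (AP-1) and TTGCNNAA (C/EBP).
Il6: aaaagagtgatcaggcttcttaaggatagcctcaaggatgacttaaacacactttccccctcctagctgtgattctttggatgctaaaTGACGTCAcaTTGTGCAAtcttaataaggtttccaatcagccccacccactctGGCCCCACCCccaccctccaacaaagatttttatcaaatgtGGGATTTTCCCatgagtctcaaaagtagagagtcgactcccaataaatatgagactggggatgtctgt
Il1b: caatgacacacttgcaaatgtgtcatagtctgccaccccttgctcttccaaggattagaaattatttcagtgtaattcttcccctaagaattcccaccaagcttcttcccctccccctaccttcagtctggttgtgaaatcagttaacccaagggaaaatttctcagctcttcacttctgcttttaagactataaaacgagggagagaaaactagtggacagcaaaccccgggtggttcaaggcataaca
Counted from the gene's start, Il6 held a pair of overlapping TGACG matches on opposite strands from -162 to -155 and a C/EBP match from -152 to -145. It held NF-kappaB matches from -109 to -100 and, overlapping each other on opposite strands, from -68 to -59 and from -67 to -58. It held no STAT or AP-1 match, and Il1b held no match to any of the 5 patterns in this window. Among 33469 promoters of the same length, 18.2% held TGACG, 9.22% TTGCNNAA, 42.3% the NF-kappaB pattern, 7.67% TTCNNNGAA and 6.34% TGANTCA. These matches describe letters only and are not shown to be bound. Of the 10 listed genes, 9 had an entry in the promoter table, and Lif had none.

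The values below are log2 of the quantile-normalized signal plus a pseudocount of 2.79, so a difference of 1 is a doubling for bright probe sets and more than that for dim ones. Where folds are given they are on this scale. A probe set counted as above background on an array when it exceeded the brightest of 27 control probe sets without a spiked target. Calls are limma tests over all 18155 probe sets that passed the filter, with Benjamini-Hochberg adjusted p under 0.05. The arrays' median deposited signal ran from 4.4 in control PeF 3, the dimmest array, to 27.4, and their share of probe sets above background from 45.7% to 75.3%. Some differences below are also given with the signals as deposited, without scaling between arrays. In that setting the median log2 difference over all tested probe sets was 1.28 between control PoF and control PeF. It was 0.77 between RU PeF and control PeF and -0.67 between RU UF and control PoF. The number of arrays limits the precision.

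The ligand gene Il6 had higher group means at 22:00 of proestrus than at 10:00 of estrus in controls and with both drugs, and the difference passed the test in RU follicles. In control PeF it stood at 2.80, 5.57 and 7.67 in samples 1 to 3, and in control PoF at 3.67, 3.56 and 3.29. The control PeF samples spread on both sides of control PoF, with sample 1 below background and sample 3 the highest of all 18. In IM PeF it stood at 6.37, 3.99 and 4.49 and in IM UF at 3.67, 4.08 and 4.26, and these groups overlapped. In RU PeF it stood at 6.38, 6.68 and 5.18 and in RU UF at 2.88, 2.53 and 3.20. Every RU PeF sample lay above every RU UF sample, and in RU UF Il6 was not above background on any of the 3 arrays. Il6 was therefore at least 6.85-fold lower in RU UF than in RU PeF, taking for RU UF on each array the higher of its background level and its own signal; the fitted log2 difference was -3.21 ± 0.83 (SE, n = 3 per group, limma adjusted p = 0.00505).

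The difference of Il6 between control PoF and PeF, -1.84 ± 0.83, did not pass the limma test (adjusted p = 0.0867), and neither did that between IM UF and PeF, -0.95 ± 0.83 (adjusted p = 0.409). The control value rested on single samples. Without control PeF 3 it was -0.68 (limma adjusted p = 0.488), and without control PeF 1 it was -3.12 (adjusted p = 0.00101). With arrays weighted by their quality it was -1.83 (adjusted p = 0.00257). The RU difference kept its call in 27 of 27 alternatives, with a limma adjusted p from 3.27e-05 to 0.0260. In the deposited signals, before normalization, Il6 in control PeF was 3.86, 55.6 and 25.7, so the rank of sample 3 above sample 2 comes from scaling up the dimmest array. At 22:00 of proestrus, the log2 difference of RU PeF from control PeF was 0.74, with a 95% interval from -1.01 to 2.48 (limma adjusted p = 0.628). That of IM PeF was -0.40, with an interval from -2.14 to 1.35 (limma adjusted p = 0.864). At estrus all 3 RU UF samples lay below all control PoF and all IM UF samples, but with RU UF at background only bounds can be given. RU UF was at least 1.15-fold lower than control PoF (limma adjusted p = 0.739) and at least 1.62-fold lower than IM UF (adjusted p = 0.499). The change of the RU effect between the times, -1.37 ± 1.17, did not pass the test either (limma adjusted p = 0.565).

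**Figure D1:**
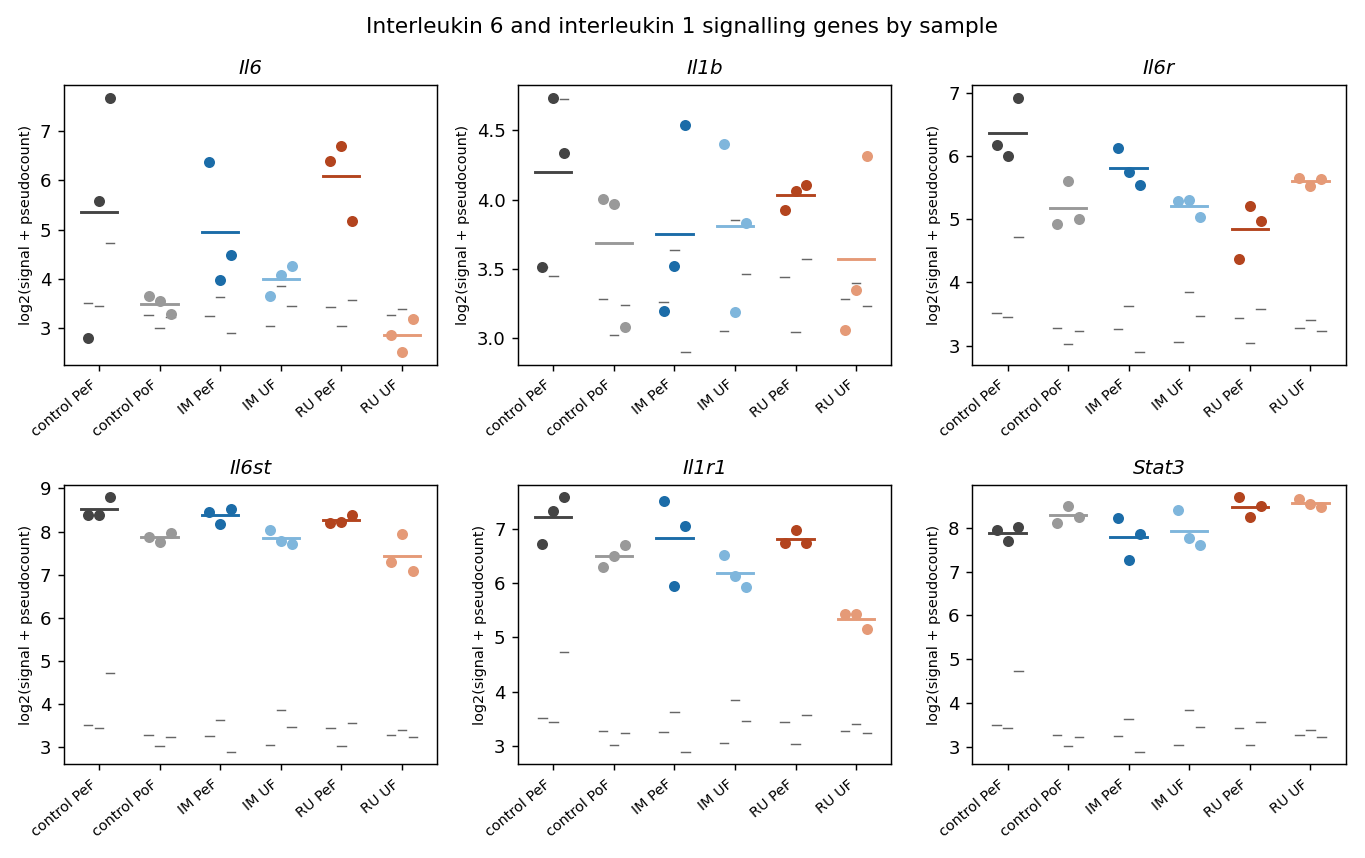
Normalized log2 signal (y axis) of the 6 tested members in the 6 groups (x axis), 1 point per sample with samples 1 to 3 from left to right, a line at each group's mean and a short black dash at each array's background level. Il6 in RU UF lies under its dashes on all 3 arrays, Il6r is lowest in RU PeF, Il1r1 is lowest in RU UF, and Il1b lies above background on 11 of 18 arrays with overlapping groups.

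The other ligands gave little signal. Il1b, the founding inflammatory cytokine of the interleukin 1 family, was above background on 11 of 18 arrays, and its group means ran only from 3.57 in RU UF to 4.20 in control PeF. It passed no test in any comparison, and its groups overlapped in all of them. In RU UF against RU PeF, for example, it stood at 3.06, 3.35 and 4.31 against 3.92, 4.06 and 4.11, a log2 difference of -0.46 with a 95% interval from -1.46 to 0.55 (limma adjusted p = 0.484). Lif, a gp130 cytokine, did not pass the filter and was above background on 9 arrays. It was above background on all 3 arrays of control PoF, at 3.76, 3.87 and 3.87, and on none of control PeF, at 1.92, 3.27 and 2.07. The background of control PeF was itself high, up to 4.73 on sample 3, so no fold can be given for Lif.

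The receptor gene Il6r, which encodes the interleukin 6 binding chain, was lower at 22:00 in RU follicles than in controls, while at estrus the RU and control values overlapped. It stood at 6.18, 6.0 and 6.92 in control PeF and at 4.38, 5.21 and 4.97 in RU PeF. All RU PeF samples lay below all control PeF samples, by -1.52 ± 0.29 (2.86-fold, SE, n = 3 per group, limma adjusted p = 0.00384). It stood at 4.93, 5.61 and 5.01 in control PoF and at 5.65, 5.52 and 5.63 in RU UF, and these groups overlapped (0.41 ± 0.29, limma adjusted p = 0.468). In controls Il6r fell from PeF to PoF by 1.18 ± 0.29 on the log2 scale (2.27-fold, limma adjusted p = 0.00350), with no overlap. In RU follicles it was higher in UF than in PeF, by 0.75 ± 0.29 (1.68-fold, limma adjusted p = 0.0490), again with no overlap.

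The change of the RU effect on Il6r between the times was tested directly and was 1.93 ± 0.41 on the log2 scale (limma adjusted p = 0.0124), the only member for which it passed. In IM follicles Il6r stood at 6.13, 5.75 and 5.54 in PeF and at 5.29, 5.30 and 5.03 in UF. These IM groups did not overlap, but the difference of -0.60 ± 0.29 did not pass (limma adjusted p = 0.123). RU PeF lay below IM PeF in all samples, by -0.96 ± 0.29, which did not pass (limma adjusted p = 0.0658). The rise of Il6r in RU follicles was lost in 17 of 27 alternatives. Without RU PeF 1, the lowest sample, it was 0.51 (limma adjusted p = 0.222), and leaving out any one of 13 of the 18 samples gave an adjusted p from 0.0505 to that value. With the signals as deposited the control fall turned to 0.22 (limma adjusted p = 0.784), where the median over all probe sets was 1.28. The RU PeF difference was then -0.69 (0.539), with a median of 0.77 over all probe sets. The change of the RU effect was 0.45 (0.692), with a median of -1.45. A fit on the 2 groups alone gave the RU PeF difference of Il6r an adjusted p of 0.0893.

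Il6st, the gp130 chain shared by the family, was bright on all arrays and lower at the later time by its brightest probe set, but its probe sets did not all move alike and the control difference turned to 0.83 with the signals as deposited. Its brightest probe set, with a mean of 8.06 over all arrays, stood at 8.39, 8.37 and 8.79 in control PeF and at 7.87, 7.77 and 7.96 in control PoF. All control PoF samples lay below all control PeF samples, by -0.65 ± 0.19 (1.57-fold, limma adjusted p = 0.0114). In IM follicles it stood at 8.47, 8.18 and 8.53 in PeF and at 8.04, 7.77 and 7.72 in UF, lower by -0.55 ± 0.19 with no overlap (limma adjusted p = 0.0344). In RU follicles it stood at 8.21, 8.22 and 8.39 in PeF and at 7.29, 7.95 and 7.09 in UF, lower by -0.83 ± 0.19 with no overlap (1.77-fold, limma adjusted p = 0.00222). No comparison of a drug with the control of its time was called for Il6st, though without RU UF 2, the highest of its group, RU UF against control PoF became -0.68 (limma adjusted p = 0.0303).

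A dimmer Il6st probe set, with a mean of 7.31, fell in controls, by -0.57 ± 0.19 (limma adjusted p = 0.0271), and in IM follicles, by -0.65 ± 0.19 (adjusted p = 0.0156). In RU follicles its difference was -0.24 ± 0.19 (limma adjusted p = 0.350). The other 2 Il6st probe sets, with means of 7.83 and 3.65 and above background on 18 and 13 arrays, were called in no comparison. Over the 18 arrays the correlation between pairs of the 4 probe sets ran from 0.05 to 0.73. The mean of the 4 probe sets gave a control difference of -0.36 (limma adjusted p = 0.308), an IM difference of -0.47 (0.197) and an RU difference of -0.48 (0.169). For the brightest probe set the control difference was -0.51 without control PeF 3 (adjusted p = 0.0557). The IM difference was lost without IM PeF 1 (-0.51, 0.0999), IM PeF 3 (-0.48, 0.121), IM UF 2 (-0.51, 0.0927) or IM UF 3 (-0.49, 0.110). For the probe set with a mean of 7.31, the control difference was lost without control PeF 1 (-0.51, 0.0689), control PeF 3 (-0.53, 0.0640), control PoF 1 (-0.53, 0.0788) or control PoF 2 (-0.55, 0.0699), and the IM difference without IM PeF 3 (-0.62, 0.0523), IM UF 2 (-0.61, 0.0502) or IM UF 3 (-0.57, 0.0645).

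Il1r1, the signalling receptor of interleukin 1, was lowest in RU UF. It stood at 6.73, 7.33 and 7.57 in control PeF and at 6.29, 6.49 and 6.70 in control PoF. In IM follicles it stood at 7.50, 5.95 and 7.04 in PeF and at 6.51, 6.13 and 5.92 in UF. In RU PeF it stood at 6.74, 6.98 and 6.74 and in RU UF at 5.43, 5.44 and 5.15. Every RU UF sample lay below every sample of the other 5 groups. The fall from RU PeF to RU UF was -1.48 ± 0.31 (2.78-fold, limma adjusted p = 0.001, 3 samples per group), and RU UF lay -1.16 ± 0.31 below control PoF (2.23-fold, limma adjusted p = 0.0255). Against IM UF the difference of -0.85 ± 0.31 did not pass (limma adjusted p = 0.116; 0.0299 without IM PeF 2).

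In controls all Il1r1 values were lower in PoF than in PeF, by -0.72 ± 0.31, which did not pass (limma adjusted p = 0.0739), and in IM follicles the groups overlapped (-0.64 ± 0.31, adjusted p = 0.120). Leaving out 1 sample brought calls here: without control PeF 1 the control difference was -0.96 (limma adjusted p = 0.0250), and without IM PeF 2 the IM difference was -1.08 (0.00336) and the control one had an adjusted p of 0.0193. Whether the RU effect differed between the times was tested and did not pass (-0.76 ± 0.44, limma adjusted p = 0.366). The call of RU UF against control PoF was lost without control PoF 2 (-1.15, limma adjusted p = 0.0758), control PoF 3 (-1.05, 0.101), RU UF 1 (-1.20, 0.0584), RU UF 2 (-1.20, 0.0641) or RU UF 3 (-1.06, 0.0968). These values come from 1 probe set: their mean with the other Il1r1 probe sets gave -0.59 for RU UF against control PoF (0.242), and those, above background on 6 and 5 arrays, did not pass the filter.

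Il1rn, the receptor antagonist, was above background on 0 of 18 arrays and at the floor of the deposited signals on 12 of them, so only an upper bound, the background of each array, can be given for it. Socs3, the feedback inhibitor of STAT3 signalling, was above background on 7 arrays. It was above background on all 3 arrays of IM PeF, at 3.47, 3.67 and 4.03, and on none of control PeF, at 2.45, 2.01 and 2.07. IM PeF lay above control PeF in all samples, but the high background of control PeF leaves no fold, and Socs3 was not tested.

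**Figure D2:**
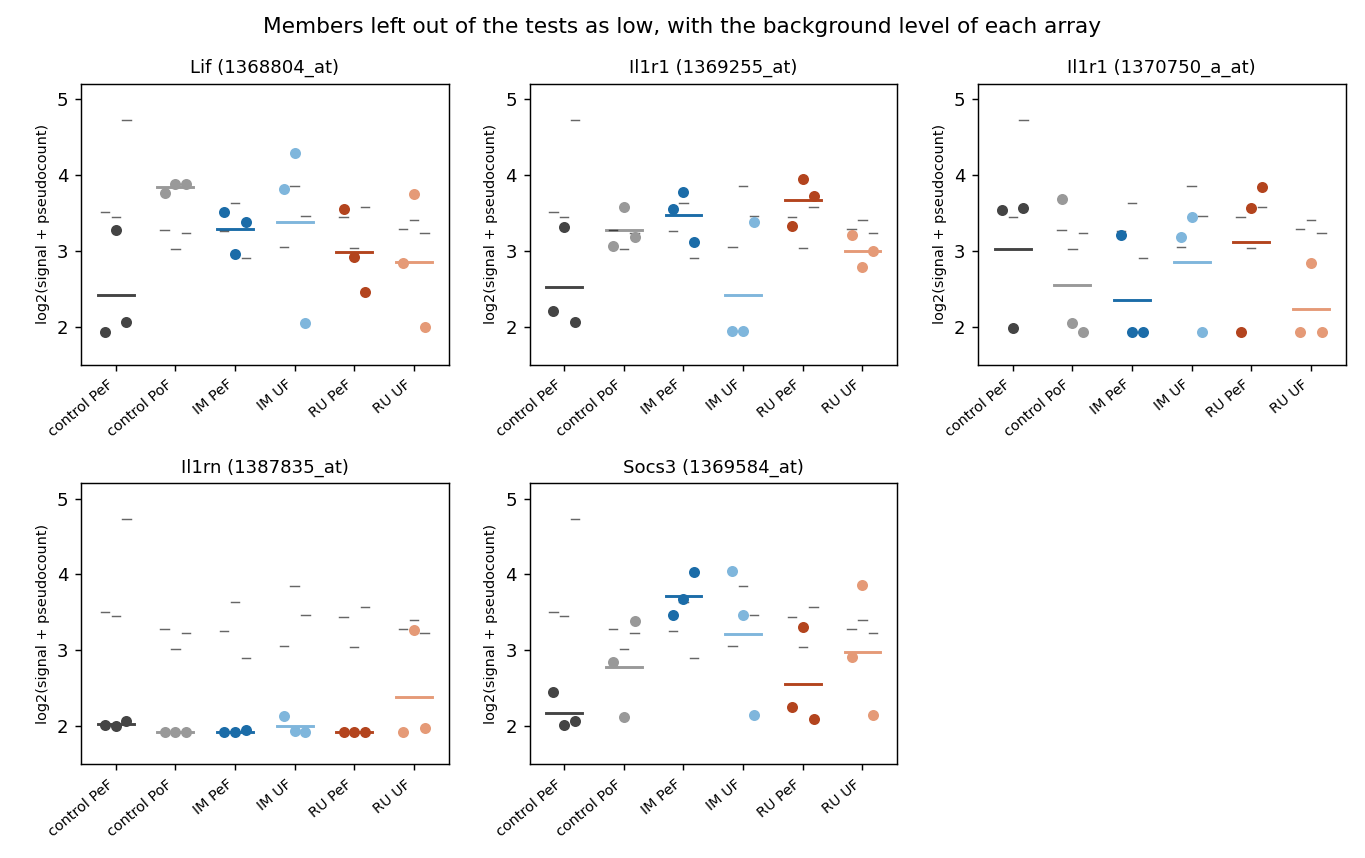
Normalized log2 signal (y axis) of the 5 probe sets left out of the tests as low, in the 6 groups (x axis), with points, group mean lines and background dashes as for the tested members. Il1rn lies under background on every array; Socs3 in IM PeF and Lif in control PoF lie above it on all 3 arrays.

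Stat3, the transcription factor downstream of gp130, was bright in all groups, and its brighter probe set was called in no comparison. It stood at 7.95, 7.69 and 8.02 in control PeF, 8.23, 7.27 and 7.85 in IM PeF and 8.69, 8.24 and 8.48 in RU PeF. All RU PeF samples lay above all control PeF samples, by 0.58 ± 0.22, which did not pass (limma adjusted p = 0.121). They also lay above all IM PeF samples, by 0.69 ± 0.22 (limma adjusted p = 0.0903). At estrus it stood at 8.12, 8.49 and 8.25 in control PoF, 8.40, 7.77 and 7.61 in IM UF and 8.66, 8.53 and 8.48 in RU UF. RU UF lay above IM UF in all samples, by 0.63 ± 0.22 (limma adjusted p = 0.109; 0.0334 without IM UF 1), and overlapped control PoF.

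The dimmer Stat3 probe set was higher in RU PeF, at 7.96, 7.51 and 7.50, than in IM PeF, at 6.90, 6.54 and 7.30. The difference was 0.75 ± 0.18 with no overlap (1.68-fold, limma adjusted p = 0.0220). It was also called higher in IM UF, at 7.45, 7.53 and 7.29, than in IM PeF, by 0.51 ± 0.18, though these groups overlapped (limma adjusted p = 0.0385). Both calls were lost without IM PeF 2, its lowest sample and one of the 3 dimmest arrays, where they became 0.56 (adjusted p = 0.133) and 0.33 (0.170). The first was also lost without RU PeF 1 (0.59, 0.121), and the second without IM PeF 1 (0.51, 0.0905), IM UF 1 (0.50, 0.0884) or IM UF 2 (0.46, 0.112). The probe sets correlated at 0.71 over the 18 arrays.

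**Figure D3:**
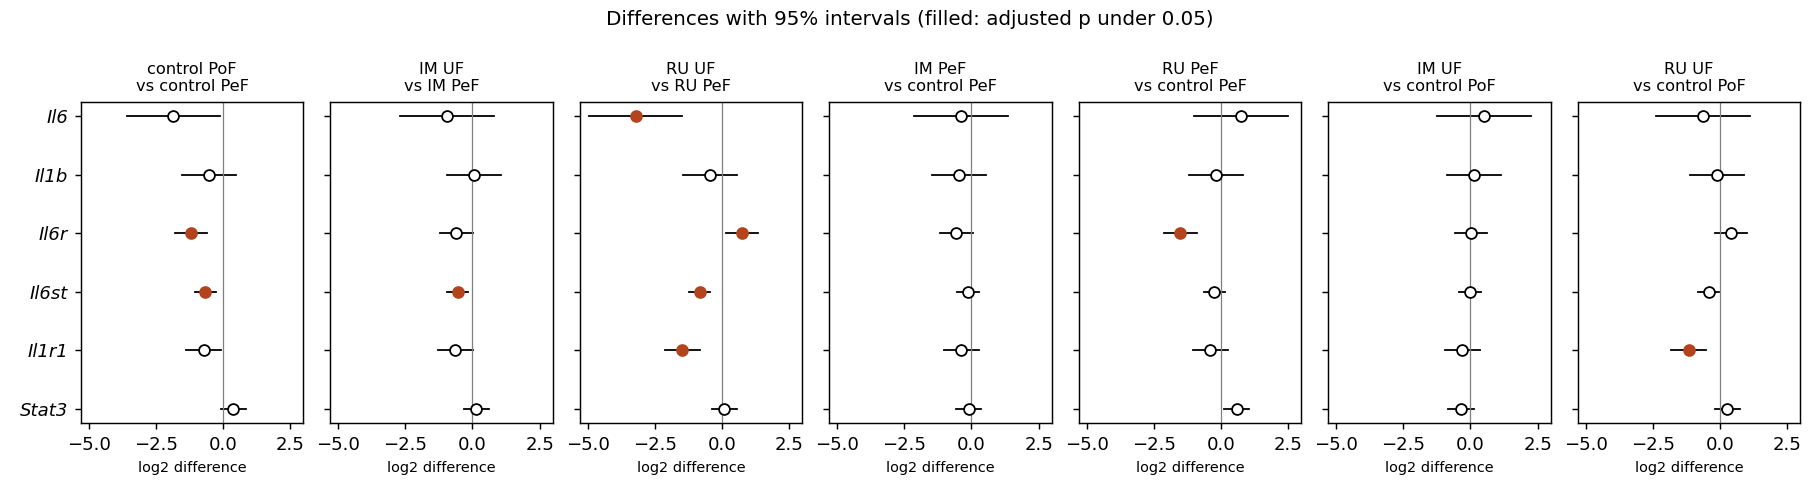
Log2 difference (x axis) with its 95% interval for each tested member (y axis) in 7 comparisons, filled where the limma adjusted p was under 0.05. In RU UF against RU PeF 4 members are filled, Il6, Il6st and Il1r1 to the left and Il6r to the right, and in both IM against control panels none is.

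Counted by 1 probe set per gene, 2 of the 6 tested members were called between control PoF and control PeF (Il6r and Il6st, both lower), where 44.1% of all 10391 genes were called, 19.7% of all being lower. In RU UF against RU PeF 4 of 6 were called, against 42.7% of all genes, 3 of them lower (21.4% of all genes) and 1 higher (21.3%). In IM UF against IM PeF 1 of 6 was called (Il6st), against 37.8% of all genes. In RU PeF against control PeF 1 of 6 was called (Il6r, 8.53% of all genes), and in RU UF against control PoF 1 of 6 (Il1r1, 9.98%). The change of the RU effect was called for 1 of 6 (Il6r, 4.44%).

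With IM no member was called against the control of its time. In IM PeF against control PeF limma called no gene at all (0% of genes), although 2074 probe sets had an unadjusted p under 0.05, and with arrays weighted by their quality 2348 probe sets were called. Among the members none of the 10 tested probe sets had an unadjusted p under 0.05 there, Il6r coming nearest at 0.0685. In IM UF against control PoF 5 genes were called (0.0481%), none of them a member. The tests of RU against IM called 0 of 6 members in PeF (6.02% of all genes) and 0 of 6 in UF (7.86%), by limma. At an unadjusted p under 0.05 were Il6r (0.00400) and Stat3 (0.00655) in PeF, and Il6st (0.0499), Il1r1 (0.0134) and Stat3 (0.0120) in UF. The treated groups of a time were set against the same control samples, so these comparisons are not independent of each other.

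The members differed in how far their group means spread. Il6 had the widest range, 3.21 log2 units, followed by Il1r1 with 1.87, Il6r with 1.52, Il6st with 1.07, Stat3 with 0.77 and Il1b with 0.62. Over the 18 arrays, Il1r1 and Il6st correlated at 0.86, Il6 and Il1r1 at 0.75 and Il6 and Il6st at 0.64, while Il6r correlated with Il6 at 0.18 and with Il1r1 at 0.30. These are descriptions over 6 groups of 3, in which samples share their time and treatment. The genes most like Il6 over the arrays were Cdca4 (0.94), Spry2 (0.94), an inhibitor of receptor tyrosine kinase signalling, and Wnt16 (0.93), a secreted Wnt ligand. Those most like Il1r1 were Kctd12 (0.93), Nabp1 (0.93) and Snx18 (0.93), and those most like Il6r were Dync2i1 (0.83), LOC102554570 (0.78) and Cybrd1 (0.77). Nabp1 shared with Il1r1 a lowest group mean in RU UF, 4.56 against 6.44 in control PoF. Dync2i1 shared with Il6r a highest mean in control PeF, 7.18, against 5.78 in RU PeF and 6.04 in RU UF. Its lowest means were in control PoF, 5.39, and IM UF, 5.45, whereas Il6r was lowest in RU PeF. These genes were picked by their likeness on the same arrays, so shared highs and lows follow in part from the choice.

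The rest of both pathways was followed through 78 further genes in 7 lists: ligands and receptors of the interleukin 6 family, JAK and STAT proteins with their inhibitors, targets of STAT3, ligands and processing enzymes of the interleukin 1 family, its receptors and adaptors, and targets of NF-kappaB. Of these, 71 were on the array and 56 passed the filter. From control PeF to PoF 20 of the 56 fell and 7 rose, where 19.7% of all genes fell and 24.4% rose, with a median log2 difference of -0.29 against 0.08 over all genes. From IM PeF to IM UF 19 fell and 7 rose, where 18.4% of all genes fell and 19.4% rose (median -0.30, all genes -0.0028). From RU PeF to RU UF 16 fell and 4 rose, where 21.4% fell and 21.3% rose (median -0.28, all genes -0.012). Of the 112 calls of member probe sets and named pathway genes over all comparisons, 15 were kept with the signals as deposited, without scaling between arrays; 82 lost the call and 15 turned in sign. The control split depended on the scaling as well. It was 10 lower and 8 higher when arrays were scaled to a common median, where the median over all probe sets was 0.26. It was 1 lower and 11 higher with the signals as deposited, where that median was 1.28. The median of the 56 genes was -0.11 with median scaling and 0.89 as deposited. It thus lay below that of all probe sets in both, as it did with quantile normalization (-0.29 against 0.045). Shares of all genes by direction are not given for these alternatives. With the signals as deposited the IM split was 2 lower and 1 higher (median -0.34, all probe sets -0.053). The RU split was then 3 lower and 0 higher (median -0.40, all probe sets -0.14).

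In all 3 time courses 10 of the 56 genes were called lower (17.9%, against 10.4% of all genes) and 2 higher (3.57%, against 12.5%). The genes lower in all 3 were the kinase Jak2, the STAT inhibitor Cish, the adaptor Grb2, the survival gene Mcl1, the cytokine Il33, the receptor chains Il1rap and Il1rl1, and the NF-kappaB targets Nfkb1, Tnfaip3 and Sod2. The genes higher in all 3 were Pycard, which encodes the adaptor ASC of the inflammasome that activates caspase 1, and Myd88, the adaptor of interleukin 1 receptors. Of the 3 Grb2 probe sets, the brightest was called in all 3 courses, while the next was called in none (0.65 in controls, limma adjusted p = 0.128). A second, dimmer Mcl1 probe set was called in the IM and RU courses but not in controls (-0.68, limma adjusted p = 0.107). The 3 courses used different samples, though their tests shared 1 estimate of the spread.

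Alongside the control course, the excess of the 3′ over the 5′ end of Gapdh on the log2 scale, a gauge of RNA integrity that is larger in poorer RNA, ran from 2.96 to 4.11 in control PeF and from 2.07 to 2.31 in control PoF. In IM follicles it ran from 2.59 to 3.63 in PeF and from 2.19 to 3.86 in UF, and in RU follicles from 2.66 to 2.95 and from 2.86 to 3.27. Its part in these differences was not tested. Of 18 leukocyte markers 17 were on the array, and their summed normalized signal ran from 639 to 776 in control PeF and from 549 to 1254 in control PoF. In the drug groups the sum was 521 to 741 (IM PeF), 789 to 1105 (IM UF), 573 to 714 (RU PeF) and 422 to 633 (RU UF). Between 6 and 15 of the 17 were above background on an array, and Itgam was on none. The part of leukocytes in the cytokine genes was not tested. Theca markers moved too: 4 of 8 were lower and 2 higher in control PoF than in PeF (19.7% and 24.4% of all genes), and 3 were lower and none higher in RU PeF than in control PeF (4.75% and 3.77%). Of 9 smooth muscle and pericyte markers, 6 were higher and 1 lower in control PoF than in PeF (24.4% and 19.7% of all genes). In IM UF against IM PeF 7 were higher and none lower (19.4% and 18.4%), and in RU UF against RU PeF 6 were higher and 1 lower (21.3% and 21.4%). The medians of these markers were 0.97, 1.52 and 1.20. In RU PeF 4 of these 9 were lower than in control PeF and none higher (4.75% and 3.77% of all genes). Their summed normalized signal ran from 673 to 860 in control PeF, 485 to 594 in IM PeF and 297 to 363 in RU PeF, and from 1104 to 1361 in control PoF, 1369 to 1628 in IM UF and 718 to 874 in RU UF. Of 11 granulosa markers 5 were lower and 3 higher in the control course, 3 and 4 in the IM course and 5 and 5 in the RU course. For 8 endothelial markers these counts were 2 and 1, 1 and 1, and 2 and 0. For 13 tested leukocyte markers they were 0 and 1, 0 and 1, and 1 and 2. The shares of all genes are those given for the smooth muscle markers. The part of these cell types in the pathway genes was not tested.

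**Figure D4:**
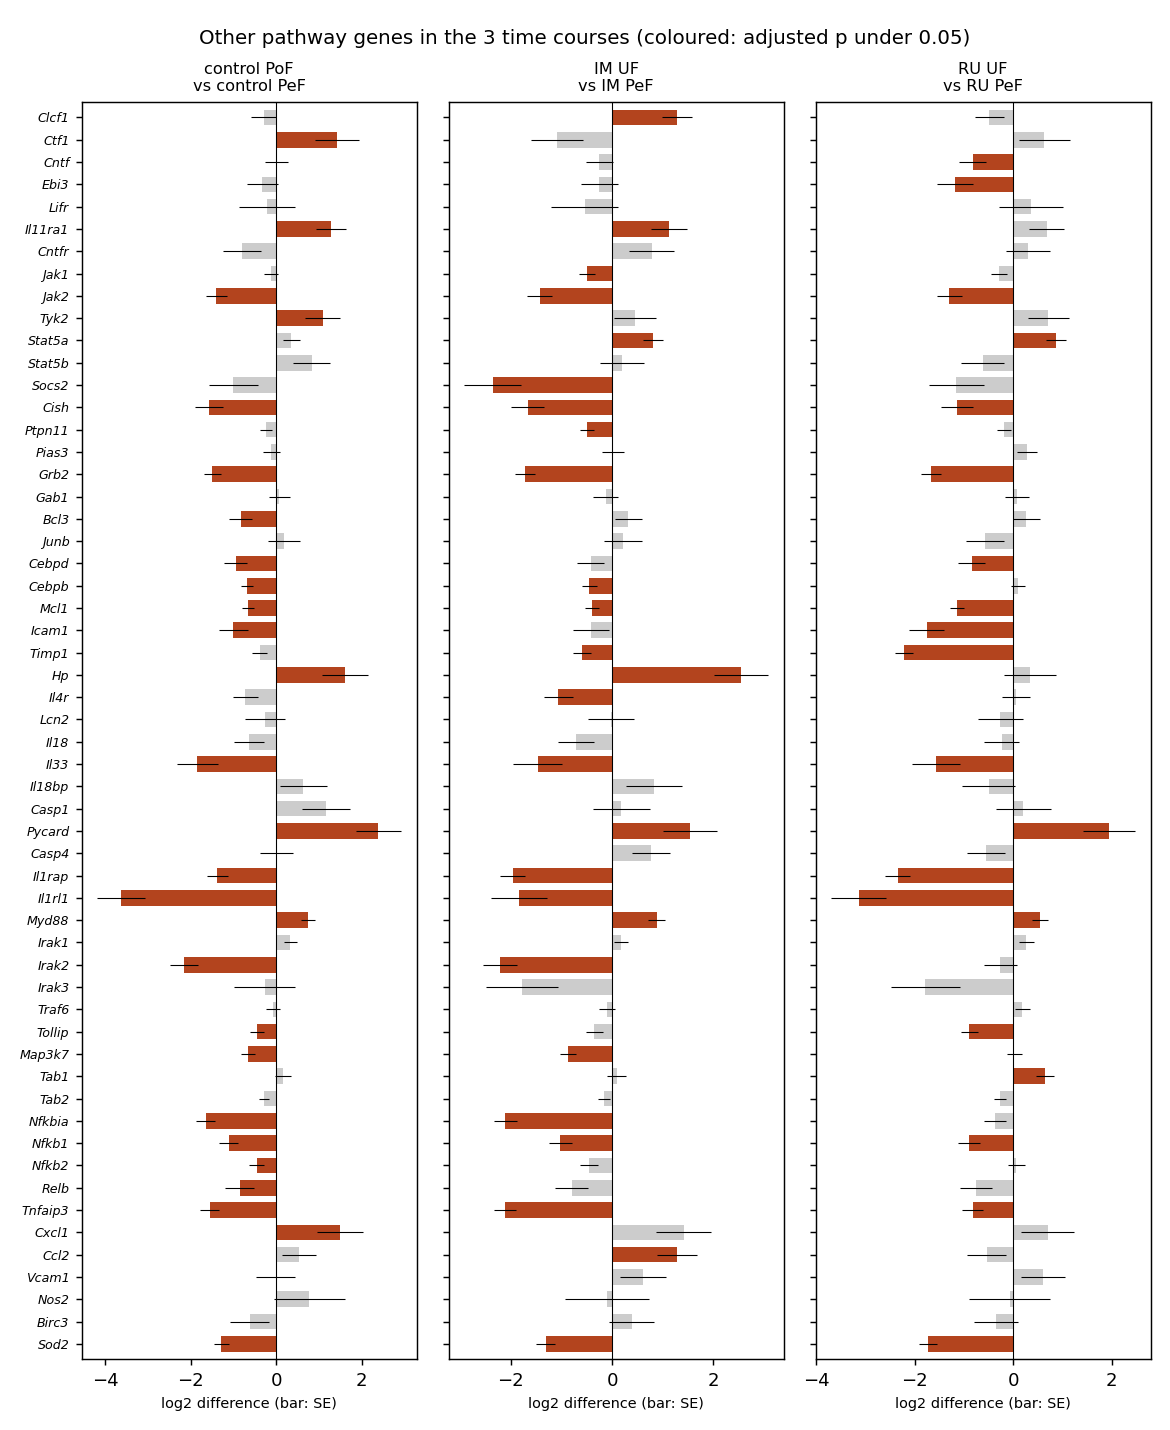
Log2 difference (x axis, bars, with the standard error as a line) of the 56 further pathway genes (y axis) in the control, IM and RU time courses, coloured where the limma adjusted p was under 0.05. Il1rl1 has the longest bar to the left in the control and RU panels, -3.63 and -3.14, and Pycard and Myd88 point right in all 3.

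The partner chain of Il1r1 was called in 7 comparisons. Il1rap, the accessory chain that IL1R1 needs to signal and that also serves the interleukin 33 receptor, stood at 7.36, 7.46 and 7.29 in control PeF and at 6.14, 5.78 and 6.07 in control PoF. In IM follicles it stood at 7.45, 7.45 and 7.01 in PeF and at 5.09, 5.51 and 5.42 in UF. In RU follicles it stood at 6.40, 6.02 and 6.35 in PeF and at 4.35, 4.11 and 3.27 in UF. Each later group lay wholly below its earlier one, and each RU group wholly below the control and IM groups of its time. The fall with time was -1.38 ± 0.25 in controls (limma adjusted p = 0.000369), -1.97 ± 0.25 in IM follicles (1.26e-05) and -2.34 ± 0.25 in RU follicles (1.45e-06).

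RU UF lay -2.08 ± 0.25 below control PoF for Il1rap (limma adjusted p = 5.08e-05) and -1.43 ± 0.25 below IM UF (0.00206). RU PeF lay -1.12 ± 0.25 below control PeF (limma adjusted p = 0.0122). This last call was lost without RU PeF 2 (-1.0, adjusted p = 0.0623) and with median scaling (-0.79, 0.119), and the control difference was 0.075 with the signals as deposited (0.929). A second, dimmer Il1rap probe set differed by -1.28 in the control course (limma adjusted p = 0.0493) and by -1.35 in the RU course (0.0390), and by -0.81 between RU UF and control PoF (0.390). So both chains of the interleukin 1 receptor, Il1r1 and Il1rap, had their lowest group mean in RU UF.

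The interleukin 33 pair fell with time in all 3 courses by the brightest probe set of each gene, but a second Il33 probe set fell in 2 of them. Il1rl1, the interleukin 33 receptor ST2, stood at 6.26, 7.80 and 7.46 in control PeF and at 4.38, 3.47 and 2.79 in control PoF, a log2 difference of -3.63 ± 0.56 (limma adjusted p = 6.69e-05). In RU follicles it stood at 6.95, 7.04 and 6.76 in PeF and at 3.41, 4.16 and 3.75 in UF, a difference of -3.14 ± 0.56 with no overlap (adjusted p = 0.000233). In IM follicles it stood at 7.74, 5.12 and 6.87 in PeF and at 4.15, 5.48 and 4.59 in UF, a difference of -1.84 ± 0.56 with overlapping groups (adjusted p = 0.0167). Its ligand gene Il33, an alarmin of the interleukin 1 family, differed by -1.84 ± 0.49 in controls (limma adjusted p = 0.00595), -1.47 ± 0.49 in IM follicles (0.0267) and -1.57 ± 0.49 in RU follicles (0.0157). This probe set was above background on all 3 arrays of each PeF group. In control PoF it was so on 2 arrays, in IM UF on 1 and in RU UF on 1, so the sizes of these differences are uncertain. The second Il33 probe set, almost as bright with a mean of 3.76 against 4.0, differed by -1.75 in controls (limma adjusted p = 0.0116), -1.42 in IM follicles (0.0403) and -0.42 in RU follicles (0.556).

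The IM call of Il33 was lost without IM PeF 1 (-1.30, limma adjusted p = 0.10), IM PeF 3 (-1.30, 0.0984), IM UF 2 (-1.33, 0.0811) or IM UF 3 (-1.47, 0.0601). Its RU call was lost without RU PeF 1 (-1.41, 0.0616), RU PeF 2 (-1.24, 0.0875) or RU UF 3 (-1.39, 0.0609).

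Irak2, a kinase downstream of MYD88, was low at 22:00 of proestrus in RU follicles, as Il6r was. It stood at 6.03, 6.27 and 6.68 in control PeF, 6.78, 6.40 and 6.32 in IM PeF and 5.38, 4.40 and 3.83 in RU PeF. All RU PeF samples lay below all samples of the other PeF groups, by -1.79 ± 0.33 against control PeF (limma adjusted p = 0.00335) and -1.96 ± 0.33 against IM PeF (0.00147). A fit on the 2 groups alone gave the difference from control PeF an adjusted p of 0.0901. At estrus it stood at 4.28, 3.99 and 4.24 in control PoF, 4.46, 4.34 and 4.08 in IM UF and 4.42, 4.48 and 3.93 in RU UF, and the 3 groups overlapped. It fell in controls by 2.16 ± 0.33 on the log2 scale (limma adjusted p = 7.35e-05) and in IM follicles by 2.21 ± 0.33 (6.82e-05). Myd88 rose by 0.74 ± 0.16 in controls (limma adjusted p = 0.00140), 0.88 ± 0.16 in IM follicles (0.000396) and 0.55 ± 0.16 in RU follicles (0.0117).

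**Figure D5:**
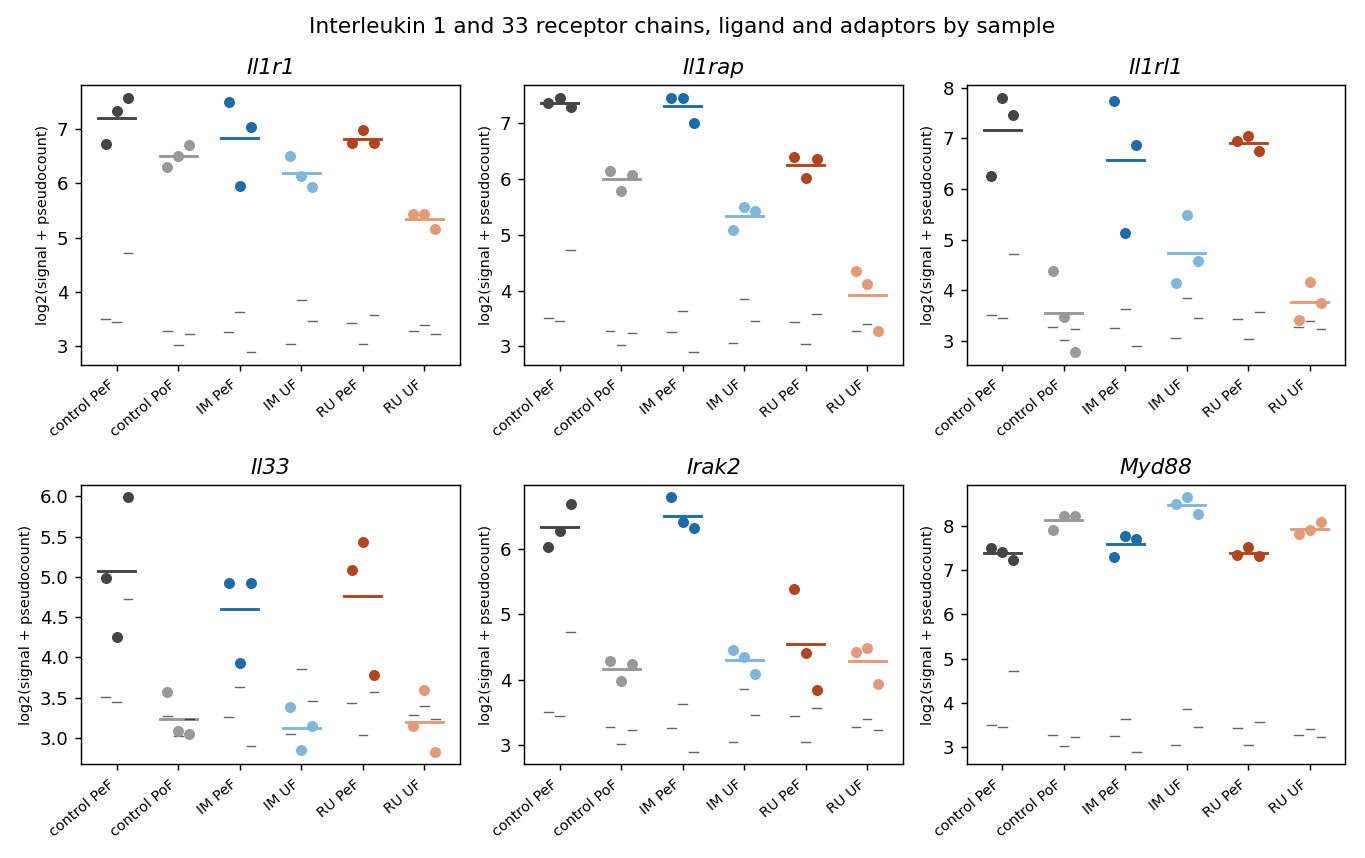
Normalized log2 signal (y axis) of Il1r1, Il1rap, Il1rl1, Il33, Irak2 and Myd88 in the 6 groups (x axis), with points, mean lines and background dashes as for the members. Il1r1 and Il1rap are lowest in RU UF, Irak2 is lower in RU PeF than in the other PeF groups, and Myd88 is the one gene of the 6 that is higher at estrus.

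Genes that gp130 and STAT3 signalling is known to act through or to induce moved in both directions. Jak2, a kinase that gp130 engages, fell by 1.41 ± 0.25 on the log2 scale in controls (limma adjusted p = 0.000233), 1.43 ± 0.25 in IM follicles (0.000227) and 1.30 ± 0.25 in RU follicles (0.000438). With the signals as deposited these were -0.11 (limma adjusted p = 0.887), -1.46 (0.316) and -1.34 (0.295). Of the 10 tested STAT3 targets, 5 fell and 1 rose in controls, 4 fell and 1 rose in IM follicles, and 4 fell and none rose in RU follicles. Over all genes 19.7%, 18.4% and 21.4% fell in the same courses and 24.4%, 19.4% and 21.3% rose, and lists this short are given only as counts. Timp1, an inhibitor of matrix metalloproteinases, showed the largest fall of them in RU follicles. It stood at 12.1, 12.3 and 12.8 in RU PeF and at 9.91, 10.2 and 10.4 in RU UF, a difference of -2.21 ± 0.18 with no overlap (limma adjusted p = 8.80e-08).

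In controls Timp1 stood at 11.6, 11.6 and 11.4 in PeF and 10.8, 11.3 and 11.3 in PoF, so RU PeF lay above control PeF by 0.85 ± 0.18 (limma adjusted p = 0.00858) and RU UF below control PoF (-0.97 ± 0.18, 0.00255). The first of these was lost without RU PeF 3 (0.67, 0.0595) and in a fit on the 2 groups alone (0.0501). The change of its RU effect between the times was -1.82 ± 0.26 (limma adjusted p = 0.000835). Cebpb, a C/EBP transcription factor, fell in controls by 0.68 ± 0.14 on the log2 scale (limma adjusted p = 0.000914), and this was -0.45 with median scaling (0.105) and turned to 0.69 with the signals as deposited.

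Of the 12 tested NF-kappaB targets, 7 fell and 1 rose in controls (all genes 19.7% and 24.4%), 4 fell and 1 rose in IM follicles (18.4% and 19.4%), and 4 fell and none rose in RU follicles (21.4% and 21.3%). Nfkbia, the NF-kappaB inhibitor that NF-kappaB itself induces, stood at 8.55, 8.61 and 8.51 in control PeF and at 6.77, 6.93 and 7.01 in control PoF. It fell by 1.65 ± 0.22 on the log2 scale (limma adjusted p = 2.03e-05), and with the signals as deposited the difference was -0.17 (0.857). Sod2, the mitochondrial superoxide dismutase, fell by 1.28 ± 0.18 in controls (limma adjusted p = 3.15e-05), 1.31 ± 0.18 in IM follicles (2.84e-05) and 1.73 ± 0.18 in RU follicles (1.14e-06), and the control difference turned to 0.17 with the signals as deposited (0.848). Ccl2, a chemokine that draws monocytes, stood at 6.82, 5.87 and 7.14 in control PoF, 7.85, 7.22 and 6.63 in IM UF and 5.82, 4.88 and 4.84 in RU UF. It lay lower in RU UF than in IM UF, by -2.05 ± 0.40 (limma adjusted p = 0.00391), and than in control PoF, by -1.43 ± 0.40 (0.0305). The latter was lost without control PoF 1 (-1.33, 0.115), control PoF 3 (-1.17, 0.147), RU UF 2 (-1.28, 0.122) or RU UF 3 (-1.26, 0.125). The summed leukocyte signal beside it was 549 to 1254 in control PoF, 789 to 1105 in IM UF and 422 to 633 in RU UF. Of 13 tested leukocyte markers, 0 were higher and 0 lower in RU UF than in control PoF (4.52% and 5.46% of all genes). Against IM UF 0 were higher and 2 lower (3.48% and 4.38% of all genes). The part of leukocytes in the differences of Ccl2 was not tested.

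Against the controls of their time, RU follicles had 4 of the 56 further genes higher and 4 lower in PeF, where 3.77% and 4.75% of all genes were, and 6 higher and 5 lower in UF, where 4.52% and 5.46% were. With median scaling the counts were 6 higher and 2 lower in PeF and 0 higher and 5 lower in UF, and with the signals as deposited 0 and 0 in PeF and 0 and 1 in UF. With IM 0 of 56 were called at either time. The NF-kappaB target Tnfaip3 was lower in RU PeF than in control PeF, by -2.45 ± 0.22 (limma adjusted p = 3.14e-06). It was also lower in RU PeF than in IM PeF (-2.75 ± 0.22, 4.12e-07) and in RU UF than in control PoF (-1.72 ± 0.22, 7.20e-05). Each of these calls was lost in 1 of 27 alternatives.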

How the data were processed

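Probe set signals of 18 Affymetrix arrays were deposited as linear intensity values made with MAS5, per the submitters' processing notes. Neither its version nor its scaling target is given in the sources used here; the lowest value was 1. A probe set was named where the platform annotation gave it 1 gene symbol (20826 did, 436 had several and 9780 none). After 57 control probe sets were left out, the arrays were quantile normalized and values taken as log2(signal + 2.79), the pseudocount being the 20th percentile of all values. The tests took in each probe set whose signal exceeded the median of its array on 3 or more of the 18 (18155 of the 31099 on the array, for 10391 genes, each gene represented by its probe set of highest mean). One mean per group was fitted over all 18 samples with limma 3.58.1 in R 4.3.3 (eBayes with trend), with Benjamini-Hochberg adjustment within each comparison and a threshold of 0.05. The steps were tested on simulated data.

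The members and gene lists were chosen with earlier results of these data known. Named were all members, up to 4 called genes of smallest adjusted p per pathway list and comparison, and the 3 genes most correlated with each of the 3 members of widest range. Values are not given in the text for every gene so named, and some genes are also given in other comparisons. Alternatives changed the normalization, pseudocount, filter, samples in the fit, array weights, dim arrays, replicate block and probe set of a gene, and left out each sample in turn. No arrays were identical, and arrays of 1 group correlated at 0.869 to 0.976. Promoters and coordinates are from RefSeq (GRCr8), matched by symbol. Figures were drawn with matplotlib 3.10.9.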

Additional observations from a re-analysis of the deposited data

Results flagged for a closer look

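For 5 of the named genes the effect of RU486 differed between the 2 times by a test of the difference itself. The value tested was the RU UF against control PoF difference minus the RU PeF against control PeF difference. This change was called for 1 of the 6 tested members. Of the 56 further pathway genes it was called higher for 3 and lower for 1. Over all genes it was called for 461 of 10391 (4.44%). Genes called in this test were named for that reason, so the count of 5 follows in part from the choice. For the member Il6r this change was 1.93 (limma adjusted p = 0.0124, log2 scale), from -1.52 in PeF to 0.41 in UF. For the kinase gene Irak2 it was 1.90 (adjusted p = 0.0308), for the NF-kappaB inhibitor Nfkbia 1.28 (0.0296) and for the transcription factor Cebpb 0.78 (0.0335). For the protease inhibitor Timp1 it was -1.82 (adjusted p = 0.000835), from 0.85 in PeF to -0.97 in UF. At estrus the control follicles were ruptured and the RU ones were not, so drug and rupture cannot be told apart in any of the 5. Leaving out 1 sample ended the call in turn for Irak2 (7 of the samples, among them RU PeF 3, 1.54 and 0.0792), for Nfkbia (7, among them RU PeF 2, 1.22 and 0.0739) and for Cebpb (7, among them RU UF 3, 0.62 and 0.0854).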

How the results depend on the processing

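Among the 6 tested members, the number called per comparison moved as follows. From control PeF to PoF it was 2, but 1 with median scaling, with the signals as deposited and with the mean over a gene's probe sets, and 5 with array quality weights; leaving out 1 sample gave 1 (without control PeF 3) to 4 (without control PeF 1). In RU PeF against control PeF it was 1, but 0 as deposited and in a fit on only the groups compared, and 2 with array weights. In RU UF against control PoF it was 1, but 0 as deposited and with the mean over probe sets, and 0 to 1 with 1 sample left out (0 without control PoF 2 or 3 or RU UF 1 or 3). From IM PeF to UF it was 1, but 0 with median scaling, as deposited, without the filter, with the replicate block and with the mean over probe sets, and 2 with array weights and without the 3 dimmest arrays (control PeF 3, IM PeF 2 and IM UF 2); leaving out 1 sample gave 0 (without IM PeF 1 or 3 or IM UF 2 or 3) to 2 (without IM PeF 2). From RU PeF to UF it was 4, and 1 as deposited, but it was not stable elsewhere. The call of Il6r in that course was lost in 17 of 27 alternatives, 13 of them with 1 sample left out. That of Il6st was lost in 2 and that of Il1r1 in 1, while Il6 was called in all 27. In RU PeF against IM PeF the number called was 0, but 3 with array weights, 1 with the mean over probe sets and 0 to 1 with 1 sample left out (1 without control PeF 3 or IM PeF 1). In RU UF against IM UF it was 0, but 1 in a fit on only the groups compared, 2 with array weights, 1 without the dimmest arrays and 0 to 1 with 1 sample left out (1 without IM PeF 2, IM UF 1 or RU UF 2). For the change of the RU effect it was 1, and 0 as deposited. Signs turned with the signals as deposited. From control PeF to PoF the log2 difference became 0.22 for Il6r, 0.83 and 0.90 for 2 Il6st probe sets, 0.69 for Cebpb, 0.80 for Mcl1, 0.51 for Cebpd, 0.22 for Bcl3, 0.075 for Il1rap, 0.17 for Sod2 and 0.36 for Nfkb1. All of these lay below the median over all probe sets in that setting, 1.28. In RU UF against control PoF the difference became -0.0020 for Stat5a, -0.091 for Map3k7 and -0.033 for Nfkb2, where that median was -0.67. The change of the RU effect became -0.79 for Cebpb and -0.35 for Nfkbia, where that median was -1.45. With the mean over probe sets Ptpn11 became 0.092 in RU PeF against IM PeF. The cause was not tested. Over all genes, as deposited, called probe sets went from 1348 to 22 in RU PeF against control PeF and from 7052 to 1038 in the RU course; with array weights they went from 0 to 2348 in IM PeF against control PeF. Same-numbered samples did not deviate together (45 pairs, 1 with a correlation over 0.1, range -0.30 to 0.12), and the numbers were not taken to pair them; the replicate block ended the calls of Il6st in the IM course (limma adjusted p = 0.0504) and of Il6r in the RU course (0.0645).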

Other observations

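Other cytokine signalling genes differed between RU and control follicles or over time in IM follicles. Stat5b, a transcription factor of cytokine and prolactin receptors, was higher in RU PeF than in control PeF by 1.89 ± 0.43 on the log2 scale (limma adjusted p = 0.0123; 1.72 and 0.0616 without RU PeF 2). Il4r, a receptor chain for interleukin 4, was higher in RU UF than in control PoF by 1.25 (limma adjusted p = 0.0112), and Traf6, a ubiquitin ligase of interleukin 1 signalling, by 0.88 (0.00142). The 3 other Traf6 probe sets were not called there (0.60, limma adjusted p = 0.122; 0.11, 0.931; -0.13, 0.970), and their mean with the first gave 0.37 (0.651). With median scaling Il4r was 1.12 (0.15) and Traf6 0.76 (0.122). Socs2, an inhibitor of growth hormone signalling, fell from IM PeF to IM UF by 2.36 ± 0.56 on the log2 scale (limma adjusted p = 0.00347). Clcf1, a gp130 cytokine, rose over the same course by 1.29 ± 0.29 (limma adjusted p = 0.00256). Hp, which encodes the haemoglobin binder haptoglobin, was at background in IM PeF and at least 4.42-fold higher in IM UF (limma adjusted p = 0.00133).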
